A study of Mus musculus with 24 samples.

Results

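The 10 genes described here, Pecam1, Cdh5, Kdr, Flt1, Tek, Tie1, Vwf, Emcn, Eng and Angpt2, are the endothelial and vessel growth genes of a bulk RNA sequencing experiment on ectopic bone constructs. They were taken by symbol, and all 10 were found among the 51138 genes of the count table and among the 30564 genes that passed a filter on low counts. Each construct held ceramic granules, biphasic calcium phosphate (BCP), and lay under the dorsal skin of male and female Foxp3-DTR/eGFP mice, 8 to 9 weeks old, until it was collected at week 2. In this strain the Foxp3 locus drives a diphtheria toxin receptor, so that regulatory T cells (Treg) can be ablated with the toxin.

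Of the 6 groups, 4 received no toxin, the first being granules alone (BCP). The next held granules with mesenchymal stem cells (MSC) from mouse bone marrow (BCP+MSC). In another, resolvin E1 (RvE1), a lipid mediator, had primed the MSC at 10 nM in culture (BCP+MSC+RvE1). In the last, Treg were cocultured on the MSC-seeded granules (BCP+MSC+Treg). The paper's methods name wild-type C57BL/6J mice as MSC donors, while its overview figure names these or Foxp3-eGFP mice. The Treg were sorted from spleens of Foxp3-DTR/eGFP mice and preactivated with antibodies to CD3 and CD28. In the remaining groups the BCP+MSC construct was placed in mice injected with diphtheria toxin, either alone, (dep)BCP+MSC, or with daily local injections of 1 µM RvE1, (dep)BCP+MSC+RvE1inj. Each group had 4 libraries, each from its own mouse. The (dep) groups differed from BCP+MSC in the toxin itself, in the intended loss of Treg and in belonging to a depletion experiment of their own, and these cannot be told apart here. Foxp3 averaged 0.933 ± 0.240 CPM (read counts per 1e+06 TMM-scaled reads) in BCP+MSC (SD, n = 4), 0.985 ± 0.542 in (dep)BCP+MSC and 0.705 ± 0.315 in (dep)BCP+MSC+RvE1inj. A lower Foxp3 level at week 2 was thus not detectable in the constructs labelled (dep) (log2 fold change 0.04 for (dep)BCP+MSC minus BCP+MSC, adjusted p = 0.989, edgeR), and (dep) is used below as a label only. These levels rest on few reads, 17 to 83 counts a library in (dep)BCP+MSC and 4 to 60 in (dep)BCP+MSC+RvE1inj. The study itself reported Treg depletion in lymph nodes and spleen, measured by flow cytometry, and not in the constructs. The libraries held 8482701 to 144417743 counts. The 2 (dep)BCP+MSC libraries whose table columns are numbered 4 and 5 could not be matched to single replicates and enter only as members of their group.

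Endothelial cells line every blood vessel and hold each other through junction proteins such as VE-cadherin (Cdh5) and PECAM-1 (Pecam1, also present on platelets and on many leukocytes). Their growth is driven by vascular endothelial growth factor (VEGF), which signals through VEGFR2 (Kdr) and is trapped by VEGFR1 (Flt1). Angiopoietins act on the receptor TIE2 (Tek) beside its partner Tie1, with angiopoietin 2 (Angpt2) released by the endothelium to loosen vessels for remodelling, while endoglin (Eng) is a co-receptor for ligands of the TGF-beta family. Endomucin (Emcn) coats capillary and venous endothelium, von Willebrand factor (Vwf) is the clotting protein stored by endothelial cells and megakaryocytes. Bone formation depends on the ingrowth of vessels.

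The sequences before the transcription starts of Kdr, Tie1 and Eng, which varied together between constructs, and of Flt1, which did not vary with them, are shown for comparison. Each run gives the 250 bases before the RefSeq start on GRCm38.p6, 5′ to 3′ on the strand of the gene, with every GGAA or its complement TTCC, the core that ETS-family factors bind, in capitals. Kdr is read from chr5:75978456-75978705 on the minus strand, Tie1 from chr4:118489850-118490099 on the minus strand, Eng from chr2:32646345-32646594 on the plus strand and Flt1 from chr5:147726012-147726261 on the minus strand.
Kdr: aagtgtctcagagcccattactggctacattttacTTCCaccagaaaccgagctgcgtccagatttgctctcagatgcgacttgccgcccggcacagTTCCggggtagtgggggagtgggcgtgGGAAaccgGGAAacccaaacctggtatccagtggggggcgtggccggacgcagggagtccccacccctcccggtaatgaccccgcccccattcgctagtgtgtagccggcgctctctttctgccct
Tie1: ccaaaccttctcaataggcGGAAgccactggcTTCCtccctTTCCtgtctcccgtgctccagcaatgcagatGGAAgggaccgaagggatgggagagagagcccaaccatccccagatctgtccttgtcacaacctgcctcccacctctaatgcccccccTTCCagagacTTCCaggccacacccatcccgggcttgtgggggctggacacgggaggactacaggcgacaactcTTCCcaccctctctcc
Eng: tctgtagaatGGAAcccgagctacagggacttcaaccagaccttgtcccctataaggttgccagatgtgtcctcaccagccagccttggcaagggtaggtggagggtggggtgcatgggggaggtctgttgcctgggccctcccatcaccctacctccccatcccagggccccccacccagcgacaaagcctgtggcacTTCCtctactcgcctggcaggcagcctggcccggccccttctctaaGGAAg
Flt1: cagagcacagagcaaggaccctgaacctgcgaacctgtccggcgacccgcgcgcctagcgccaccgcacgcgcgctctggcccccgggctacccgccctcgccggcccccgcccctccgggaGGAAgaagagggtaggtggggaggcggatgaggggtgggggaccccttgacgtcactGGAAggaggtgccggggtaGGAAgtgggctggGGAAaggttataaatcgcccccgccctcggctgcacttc

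The window of Tie1 held 7 such cores, those of Kdr and Flt1 held 4 each, and that of Eng held 3. The RefSeq start of Tie1 lies inside the gene as annotated for counting, which reaches to chr4:118490061. Most of the Tie1 window thus falls within that gene. A core was present in 93.4% of 32851 mouse windows of this length, with a median of 3, so that its presence sets none of these genes apart. The longer form CCGGAA, searched on both strands, was found once in the Kdr window and in 12% of all windows, and TATAAA was found once in the Flt1 window and in 12.4% of all windows. GATAA, searched likewise and present in 22.6% of all windows, was not among the letters of these windows. Windows were found for 6 of the 10 genes, the others being Tek, with 2 cores, and Emcn, with 4, and were not found for Pecam1, Cdh5, Vwf and Angpt2. These are matches of letters and not measured sites.

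All 10 genes were well above the detection limit in every construct, the lowest count being 83 for Angpt2, so that an endothelial signal was present in every library. Per kilobase of exon, Pecam1 (ENSMUSG00000020717.19, chr11:106654217-106750628) was the most abundant, with a mean of 21.3 reads per kilobase and 1e+06 reads (RPKM) over the 24 libraries. It was followed by Eng (chr2:32646595-32682669) at 19.5 RPKM and by Cdh5 (chr8:104101625-104144511) at 16.5 RPKM. The other 7 genes lay lower, from 8.85 RPKM for Tie1 (chr4:118471191-118490061) through 6.2 for Vwf (chr6:125546774-125686679) and 5.99 for Flt1 (chr5:147561604-147726011) to 3.04 for Kdr (chr5:75932827-75978458). Angpt2 (chr8:18690263-18741562), Emcn (chr3:137341067-137432185) and Tek (chr4:94739289-94874976) lay between Flt1 and Kdr, at 4.34, 4.13 and 3.89 RPKM. All positions are those of the gene in GRCm38, and counts were over exons. An exon of Eng overlaps Fpgs on the opposite strand, and because the counting was not stated to use strand, reads of that gene could enter the Eng count. No exon of another gene overlaps the other 9.

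The levels of each gene in each construct are plotted as TMM-scaled CPM, which is used below for all comparisons of 1 gene between groups. A bulk level falls in the same way when fewer endothelial cells are present and when each holds less of the RNA. It also falls when other cells that express the gene become fewer, and these cannot be told apart. Eng encodes CD105, for which the paper found its cultured MSC positive, so that its level need not be endothelial alone.

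**Figure D1:**
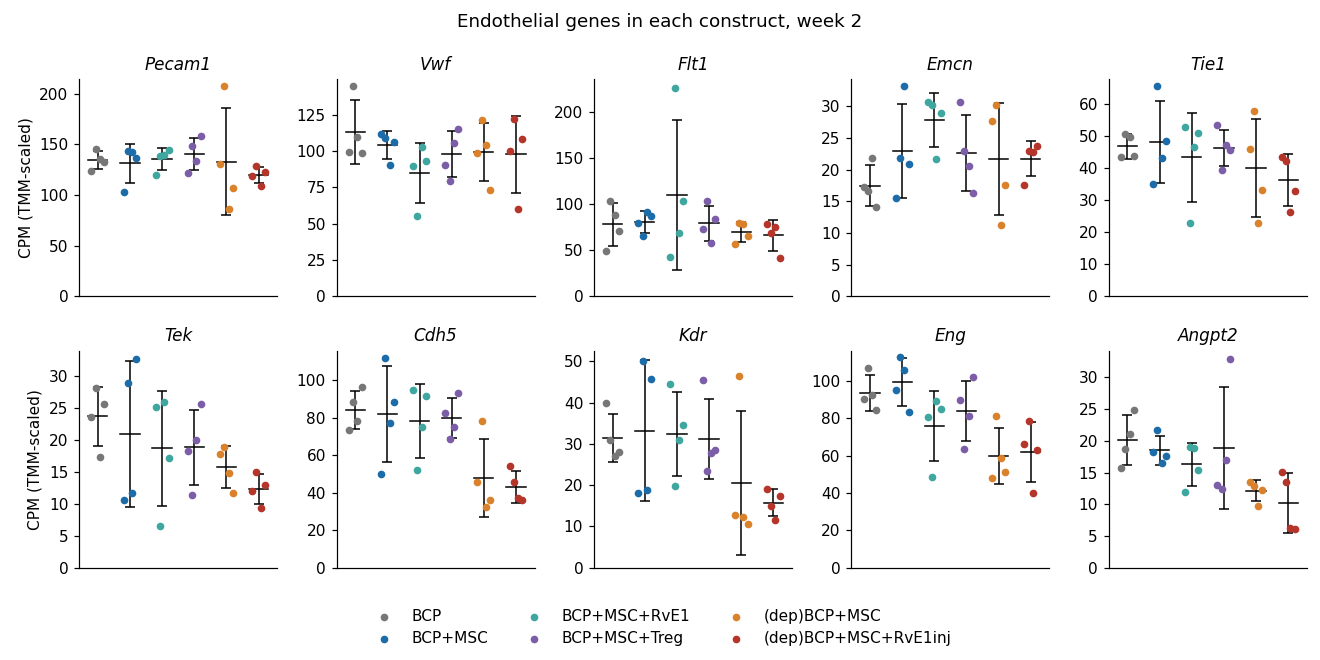
TMM-scaled CPM (vertical axes, from 0) of the 10 genes in each of the 24 constructs, by group, with the mean (long bar) and SD (short bars, n = 4). Means over the 8 (dep) libraries were 45.5 CPM for Cdh5 and 18.1 CPM for Kdr against 81.0 and 32.1 over the 16 others, while those of Pecam1 were 127 against 135 CPM, and (dep)BCP+MSC replicate 2 had 46.5 CPM of Kdr against 10.5 to 12.8 in the other 3 libraries of its group.

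Among the 4 groups without toxin, which ask what MSC and their priming add to the vessels of the construct, no gene of the 10 was called in any of the 6 pairwise comparisons (edgeR quasi-likelihood test, Benjamini-Hochberg adjusted p under 0.05), and percent called over all genes was 0 in each. The median log2 fold change of the 10 genes was 0.00 for BCP+MSC minus BCP, -0.11 for BCP+MSC+RvE1 minus BCP and -0.04 for BCP+MSC+Treg minus BCP. With BCP+MSC as the reference it was -0.11 after RvE1 priming and -0.04 after Treg coculture, and between the primed groups it was 0.04 for BCP+MSC+Treg minus BCP+MSC+RvE1. At an unadjusted p under 0.05 these comparisons held between 725 and 4755 genes, and of the 10 genes only Emcn was among them, in BCP+MSC+RvE1 minus BCP. DESeq2 called 0 to 99 genes in these comparisons and none of the 10.

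Emcn was 17.2, 16.7, 21.8 and 14.1 CPM in the 4 BCP constructs and 30.7, 30.1, 21.6 and 28.9 CPM in the BCP+MSC+RvE1 constructs. The groups overlapped through 1 library each, at 21.8 and 21.6 CPM. The log2 fold change was 0.67 (SE 0.27, unadjusted p = 0.0198, adjusted p = 0.30 by edgeR), against 15.6% of all genes at an unadjusted p under 0.05 in this comparison. BCP+MSC and BCP+MSC+Treg lay between, at 22.9 ± 7.40 and 22.6 ± 6.03 CPM (SD, n = 4).

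The groups without toxin also showed how much these genes vary between mice given the same construct. In BCP+MSC, Tek stayed at 10.6 and 11.7 CPM in replicates 1 and 3 but reached 28.8 and 32.6 CPM in the other mice. Kdr, the main signalling VEGF receptor, fell into the same pairs in these libraries, at 18.2 and 18.7 CPM against 49.99 and 45.8 CPM. BCP+MSC+RvE1 replicate 2 stood apart in the other direction for Flt1, with 226 CPM against 42.7 to 103 in the other 3 libraries of its group. That library had the lowest Tek of all 24, at 6.44 CPM, and low Tie1 (22.9 CPM) and Eng (48.4 CPM). Over all 24 constructs the highest value was 5.49-fold the lowest for Flt1, 5.39-fold for Angpt2 and 5.06-fold for Tek, but 2.40-fold for Pecam1.

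The comparison of (dep)BCP+MSC with BCP+MSC sets the same construct in toxin-injected mice of the depletion experiment against that in mice without toxin. None of the 10 genes was called, against 3.92% of all genes (1198 genes, edgeR). Of the 10, 2 (Cdh5 and Eng) had an unadjusted p under 0.05, against 20.3% of all genes, which is no larger a share. The fold change was below 0 for 9 of the 10, against 52.1% of all genes, with a median of -0.34 against -0.04 over all genes tested. The genes did not move alike, however, and Cdh5, Eng, Kdr and Angpt2 lay between -0.77 and -0.61 while Pecam1, Vwf and Emcn lay between -0.08 and 0.02. DESeq2 called 1 of the 10, Eng, among 2895 genes called in all.

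Cdh5, the adherens junction cadherin of endothelium, was 50.04, 112, 77.2 and 88.5 CPM in BCP+MSC. It was 45.6 and 77.9 CPM in replicates 1 and 2 of (dep)BCP+MSC and 32.2 and 35.9 CPM in the libraries numbered 4 and 5. In (dep)BCP+MSC+RvE1inj it was 54.0, 45.5, 36.9 and 36.0 CPM. Except for (dep)BCP+MSC replicate 2 and (dep)BCP+MSC+RvE1inj replicate 1, the (dep) libraries lay below the lowest BCP+MSC library. The log2 fold change from BCP+MSC was -0.77 in (dep)BCP+MSC (SE 0.26, adjusted p = 0.0931 by edgeR, two-sided exact permutation p = 0.0857) and -0.92 in (dep)BCP+MSC+RvE1inj (SE 0.26, adjusted p = 0.1005 by edgeR).

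Eng, the endoglin gene, was 95.2, 113, 106 and 83.3 CPM in BCP+MSC. Replicates 1 and 2 of (dep)BCP+MSC held 47.9 and 81.3 CPM, its libraries numbered 4 and 5 held 58.7 and 51.3 CPM, and in (dep)BCP+MSC+RvE1inj it was 66.4, 78.5, 39.8 and 62.8 CPM. Neither (dep) group overlapped with BCP+MSC. The log2 fold change was -0.73 (SE 0.22, adjusted p = 0.0648 by edgeR and 0.0180 by DESeq2) and -0.68 (SE 0.22, adjusted p = 0.168), and the exact permutation p was 0.0286 in both, the smallest that 4 against 4 libraries allow.

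Kdr was 12.8, 12.3 and 10.5 CPM in 3 libraries of (dep)BCP+MSC and 46.5 CPM in replicate 2, as high as the higher pair in BCP+MSC. In (dep)BCP+MSC+RvE1inj it was 18.9, 15.0, 11.6 and 17.5 CPM, so that the highest of these lay just above the lower pair of BCP+MSC. The log2 fold change was -0.69 (SE 0.41, adjusted p = 0.350) in (dep)BCP+MSC and -1.07 (SE 0.41, adjusted p = 0.245) in (dep)BCP+MSC+RvE1inj. The first value rested on 1 library: without (dep)BCP+MSC replicate 2 it was -1.49 (adjusted p = 0.0260 by edgeR), and Cdh5 (-1.11, adjusted p = 0.0224) and Eng (-0.91, adjusted p = 0.0458) were then called as well. Without that replicate, singled out by its Kdr value, 3 of the 10 genes were thus called, all lower. Fits of this comparison that left out 1 library called 467 to 1672 genes in all.

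Angpt2, the antagonistic TIE2 ligand, was 18.2, 21.7, 16.4 and 17.7 CPM in BCP+MSC. It was 13.6 and 12.9 CPM in replicates 1 and 2 of (dep)BCP+MSC and 9.80 and 12.3 CPM in the libraries numbered 4 and 5, and 15.1, 13.6, 6.19 and 6.10 CPM in (dep)BCP+MSC+RvE1inj. All 8 (dep) libraries lay below all 4 BCP+MSC libraries. The log2 fold change was -0.61 (SE 0.30, adjusted p = 0.257 by edgeR) and -0.85 (SE 0.30, adjusted p = 0.210), with an exact permutation p of 0.0286 in both. Eng and Angpt2 were the 2 of 10 genes whose groups did not overlap in (dep)BCP+MSC minus BCP+MSC, against 9.15% of all genes, and the same 2 did not overlap in (dep)BCP+MSC+RvE1inj minus BCP+MSC, against 7.21% of all genes. Both comparisons use the same 4 BCP+MSC libraries.

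Tek, the TIE2 receptor gene, was 17.7, 18.9, 14.8 and 11.6 CPM in the (dep)BCP+MSC libraries and 12.0, 15.0, 9.33 and 13.0 CPM in (dep)BCP+MSC+RvE1inj, between the low and high pairs of BCP+MSC or near the low pair. Its log2 fold change was -0.41 (SE 0.37, adjusted p = 0.564) and -0.76 (SE 0.37, adjusted p = 0.36). Tie1 was 48.2 ± 12.9 CPM in BCP+MSC, 40.04 ± 15.3 in (dep)BCP+MSC and 36.3 ± 8.17 in (dep)BCP+MSC+RvE1inj (SD, n = 4), and Flt1 was 80.7 ± 11.7, 70.3 ± 10.9 and 66.1 ± 17.1 CPM. The log2 fold changes of Tie1 were -0.27 and -0.41, and those of Flt1 were -0.20 and -0.29, all within the spread between libraries.

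Pecam1 was 103, 144, 142 and 137 CPM in BCP+MSC. It was 130.4 and 208 CPM in replicates 1 and 2 of (dep)BCP+MSC, 86.7 and 107 CPM in the libraries numbered 4 and 5, and 119, 129, 109 and 123 CPM in (dep)BCP+MSC+RvE1inj. The groups overlapped throughout, with log2 fold changes of 0.02 (95% interval -0.40 to 0.43) and -0.13 (-0.55 to 0.28). Vwf changed by -0.07 (-0.53 to 0.39) and -0.10 (-0.55 to 0.36), and Emcn by -0.08 (-0.64 to 0.47) and -0.08 (-0.63 to 0.48). The lower bounds of these intervals lay above the estimates for Cdh5 in the same comparisons. They overlapped the intervals of Cdh5 itself, -1.31 to -0.24 and -1.46 to -0.39, and setting them side by side is not a test between genes.

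**Figure D2:**
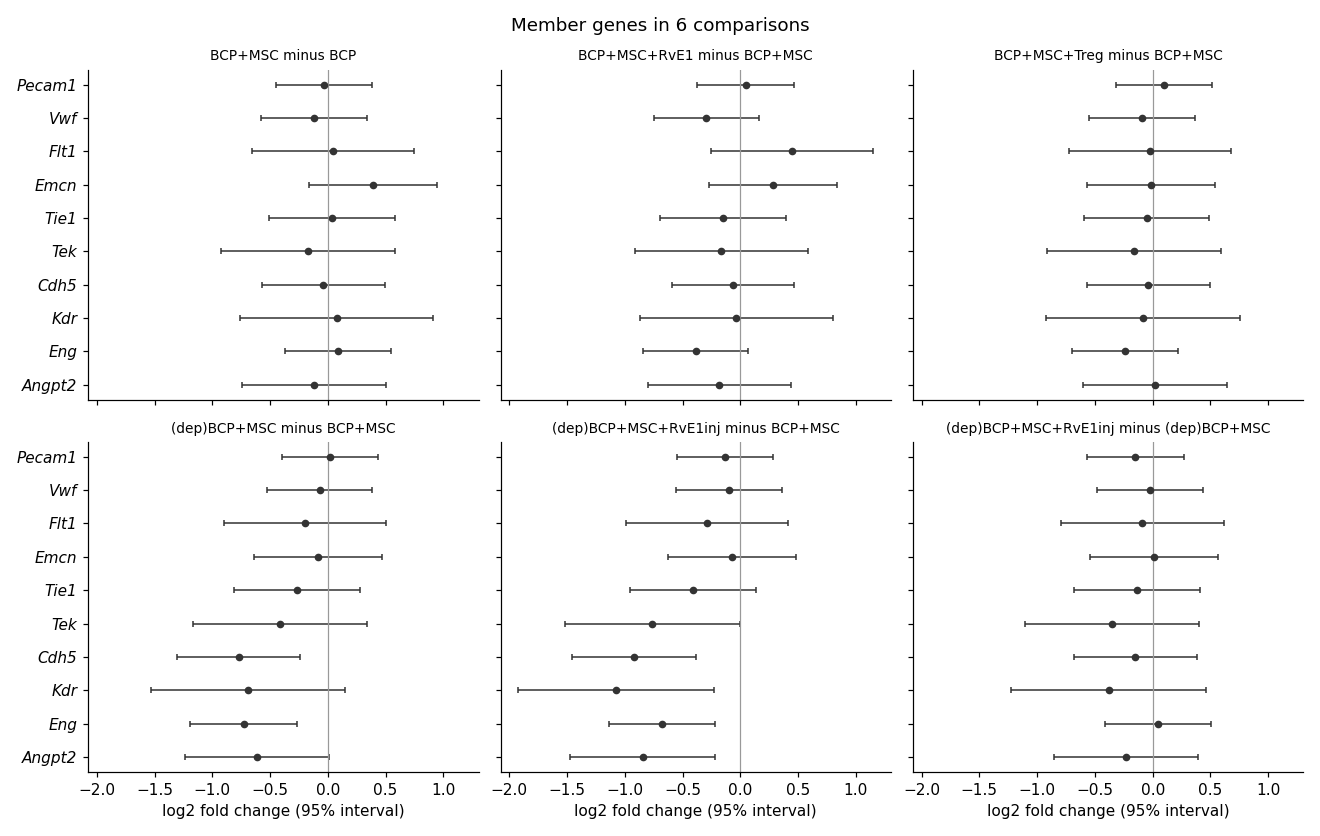
Log2 fold change (horizontal axes) of the 10 genes (rows) in 6 comparisons, with 95% intervals from the edgeR fit. The upper panels centre near 0, while in the lower left and middle panels Cdh5 and Eng lie at -0.77 and -0.73 and at -0.92 and -0.68, with intervals below 0.

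In (dep)BCP+MSC+RvE1inj minus BCP+MSC, a comparison added after the values were seen, 0 of the 10 genes were called against 0.72% of all genes (220 genes, edgeR). Here 5 of the 10 (Cdh5, Kdr, Tek, Eng and Angpt2) had an unadjusted p under 0.05, against 13.7% of all genes. DESeq2 called 2 of the 10 (Cdh5 and Eng), among 1112 genes called in all. The fold change was below 0 for all 10, against 52.2% of all genes, with a median of -0.54 against -0.04. Daily local RvE1 injection, (dep)BCP+MSC+RvE1inj minus (dep)BCP+MSC, was followed by no called change in the 10 genes or in any other gene (percent called 0, edgeR). At an unadjusted p under 0.05 there were 2269 genes and none of the 10, and DESeq2 called 8 genes and none of the 10. The paper describes no vehicle injection for (dep)BCP+MSC, so that RvE1 and the injection itself cannot be told apart. The median of this comparison over the 10 genes was -0.14. The widest of the 10 was Kdr at -0.38 (95% interval -1.23 to 0.46), which turned to 0.42 without (dep)BCP+MSC replicate 2. For none of the 10 genes, nor any gene tested, did the effect of injected RvE1 differ detectably from that of priming (percent called 0, edgeR). At an unadjusted p under 0.05 there were 1360 genes and none of the 10, and DESeq2 called 2 genes. Route, dose and host differ between these effects, and that of injected RvE1 includes the injection itself.

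Taking the 8 (dep) libraries together, also chosen after the values were seen, gave 2 of 10 genes called lower than BCP+MSC, against 4.16% of all genes called and 2.78% called lower. These were Cdh5, at 45.5 ± 14.9 CPM (SD, n = 8) against 81.8 ± 25.5 CPM, with a log2 fold change of -0.85 (SE 0.22, adjusted p = 0.0258 by edgeR), and Eng, at 60.9 ± 14.5 against 99.2 ± 12.9 CPM, with -0.70 (SE 0.19, adjusted p = 0.0321). Both calls were lost without BCP+MSC replicate 2, with -0.65 (adjusted p = 0.151) for Cdh5 and -0.62 (adjusted p = 0.123) for Eng. The call of Cdh5 was also lost without BCP+MSC replicate 4 (adjusted p = 0.0673) and without (dep)BCP+MSC+RvE1inj replicate 3 (0.0503) or 4 (0.0511). That of Eng was lost without BCP+MSC replicate 1 (adjusted p = 0.0681) or 3 (0.0828), (dep)BCP+MSC replicate 1 (0.0598), or (dep)BCP+MSC+RvE1inj replicate 3 (0.0562) or 4 (0.0530). Kdr (-0.88, adjusted p = 0.147) and Angpt2 (-0.73, adjusted p = 0.106) were not called, but Kdr was without (dep)BCP+MSC replicate 2 (-1.28, adjusted p = 0.00710).

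Against all 16 libraries without toxin, again a comparison added after the values were seen, 4 of the 10 genes were called lower in the (dep) libraries, against 16% of all genes called and 7.17% called lower. Cdh5 ranged from 32.2 to 77.9 CPM in the (dep) libraries, with a median of 41.2, and from 50.04 to 112 with a median of 80.2 without toxin, and 6 of the 8 (dep) libraries lay below the lowest of the 16. Its log2 fold change was -0.83 (SE 0.16, adjusted p = 0.00110 by edgeR), and it was called in every fit that left out 1 library. Kdr ranged from 10.5 to 46.5 CPM with a median of 13.9 against 18.2 to 49.99 with a median of 29.6, and again 6 of the 8 (dep) libraries lay below the lowest of the 16 (-0.83, SE 0.26, adjusted p = 0.0297). Eng (-0.53, SE 0.14, adjusted p = 0.0110) and Angpt2 (-0.72, SE 0.19, adjusted p = 0.0115) lay below the median without toxin in all 8 (dep) libraries. These 2 were called in every fit that left out 1 library, whereas the call of Kdr was lost without (dep)BCP+MSC replicate 1 (adjusted p = 0.0631), the libraries numbered 4 (0.0637) or 5 (0.0558), or (dep)BCP+MSC+RvE1inj replicate 2 (0.0533) or 3 (0.0691).

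The remaining genes were not called in that comparison. Tek was -0.55 (SE 0.23, adjusted p = 0.105) and was called without BCP+MSC+RvE1 replicate 2 (-0.62, adjusted p = 0.0351), while Flt1 was -0.34 (SE 0.21, adjusted p = 0.301) and Tie1 -0.28 (SE 0.16, adjusted p = 0.271). Pecam1 (-0.10, 95% interval -0.36 to 0.16), Vwf (-0.02, -0.30 to 0.26) and Emcn (-0.05, -0.39 to 0.29) lay near 0. The lower bounds of all 3 stay above the estimates for Cdh5 and Kdr, which is not a test between genes. In the test over all 6 groups together, Cdh5 was the one gene called of the 10 (adjusted p = 0.0461 by edgeR), against 4.75% of all genes, and 3 of the 10 (Cdh5, Eng and Angpt2) had an unadjusted p under 0.05, against 20.4%. That count of 1 fell to 0 in 21 of the 24 fits that left out 1 library.

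Ordered by mean log2 CPM, the (dep) groups held the lowest 2 places for 8 of the 10 genes. The others were Vwf, lowest in BCP+MSC+RvE1, and Emcn, lowest in BCP. The share of all genes tested with the (dep) groups in these places was not counted, so that 8 of 10 cannot be called unusual. Neighbours in the order of a gene differed by more than the pooled SD between libraries in 2 cases only. For Cdh5, BCP+MSC+RvE1, the lowest group without toxin, lay 0.76 above (dep)BCP+MSC on the log2 scale, against an SD of 0.38. For Kdr, BCP+MSC lay 0.84 above (dep)BCP+MSC, against an SD of 0.60. The largest such step was 0.07 for Pecam1 and 0.19 for Vwf.

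The read counts of Cdh5 were also taken per Pecam1 count within each library, a measure chosen after the values were seen to which the scaling of libraries makes no difference. The Cdh5 to Pecam1 ratio was 0.487, 0.776, 0.543 and 0.646 in BCP+MSC. It was 0.349 and 0.374 in replicates 1 and 2 of (dep)BCP+MSC and 0.371 and 0.335 in the libraries numbered 4 and 5, and 0.452, 0.354, 0.339 and 0.293 in (dep)BCP+MSC+RvE1inj. All 8 (dep) libraries lay below all 4 BCP+MSC libraries, including (dep)BCP+MSC replicate 2, whose Cdh5 level had stood out as high. The log2 difference was -0.76 and -0.77, each with a two-sided exact permutation p of 0.0286, the smallest possible. Among the 16 libraries without toxin the lowest ratio was 0.375, in BCP+MSC+RvE1 replicate 2, and the next was 0.465.

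The same ratios for Eng (log2 difference -0.70 and -0.59, exact permutation p = 0.0571 in both) and Kdr (-0.79 and -0.82, exact p = 0.143 and 0.0857) overlapped with BCP+MSC. The Vwf to Pecam1 ratio differed by -0.04 and -0.02 (exact p = 0.8286 and 0.943), and the Tie1 to Pecam1 ratio by -0.27 and -0.28 (exact p = 0.171 and 0.20). Adjusted over these 10 ratio tests by Benjamini-Hochberg, the exact p of Cdh5 was 0.143 in both comparisons.

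**Figure D3:**
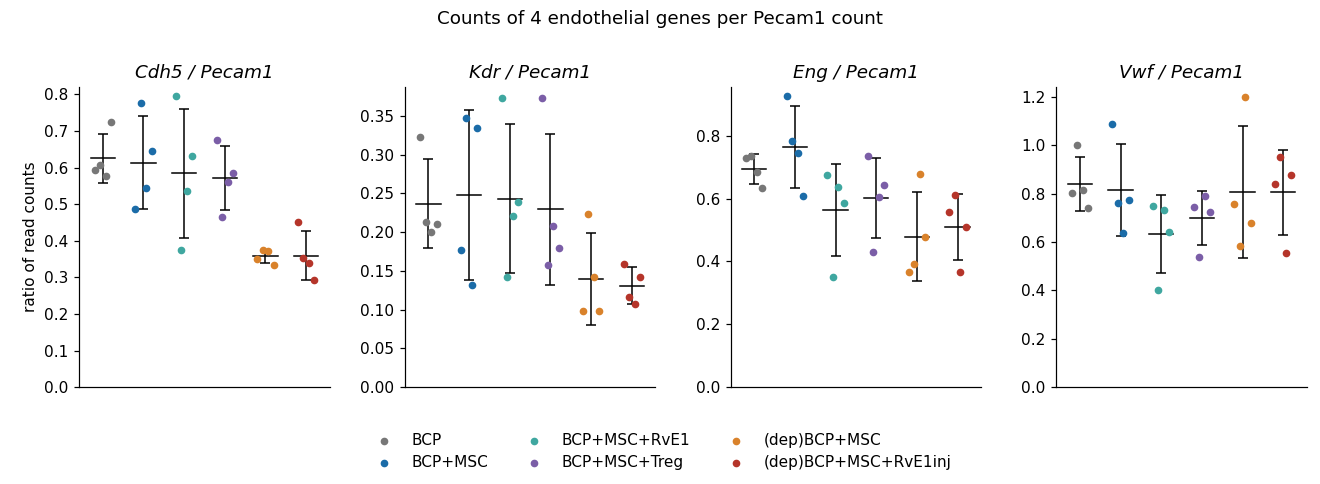
Read counts of Cdh5, Kdr, Eng and Vwf per read count of Pecam1 (vertical axes, ratio, from 0) in each of the 24 constructs, with the mean and SD of each group (n = 4). The Cdh5 ratio was 0.335 to 0.374 in (dep)BCP+MSC against 0.487 to 0.776 in BCP+MSC, while the Vwf ratio overlapped between all groups.

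Across the 24 libraries the genes fell into those that rose and fell together and those that did not. Of the 45 pairs, 36 had a positive Pearson correlation of log2 CPM and 18 were over 0.5. Cdh5 correlated with Kdr at r = 0.88, with Tie1 at 0.80 and with Eng at 0.77, while Flt1 and Tek, both tyrosine kinase receptors of endothelium, were at -0.41. With the group means removed, Cdh5 was at 0.80 with Kdr, 0.87 with Tie1 and 0.60 with Eng, and the median over the pairs was 0.34 against 0.41 before. These correlations are descriptions over n = 24 libraries of 6 groups, in which all genes share the library, its depth and its make-up of tissues.

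**Figure D4:**
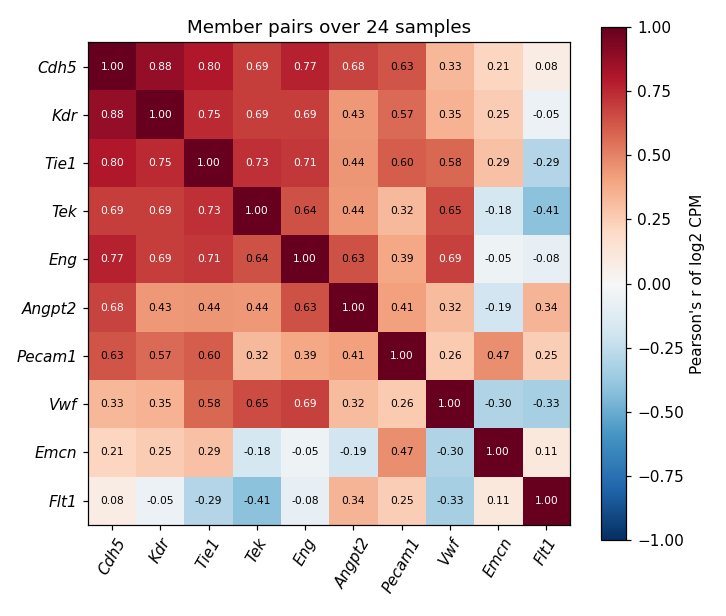
Pearson's r (colour scale from -1 to 1) between the log2 CPM of each pair of the 10 genes over the 24 libraries. Cdh5, Kdr, Tie1, Tek and Eng form a block of values from 0.64 to 0.88, and Flt1 and Emcn stand outside it.

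The genes most like the mean of the 10, each gene centred and scaled, were sought among 14764 other genes with a mean of at least 1 CPM. The 5 nearest were Kif26a (r = 0.87 over 24 libraries), a kinesin-family gene, Col4a2 (0.87) and Col4a1 (0.86), which encode the collagen IV chains of basement membrane, Adamts9 (0.86), a secreted protease gene, and Ldb2 (0.85), a LIM-domain-binding gene. Col4a1 ranged from 63.4 to 742 CPM over the libraries and Col4a2 from 51.5 to 416 CPM.

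Beyond the 10 genes, other genes of vessels and their supporting cells were counted in lists. Of 22 ligands and receptors of vessel growth, 5 fell and 0 rose in (dep)BCP+MSC minus BCP+MSC, with a median log2 fold change of -0.86 against -0.04 over all genes, of which 2.17% were called lower. Of 12 Notch pathway genes 1 fell, of 28 other endothelial genes 2 fell, of 13 pericyte and smooth muscle genes 3 fell, and of 7 lymphatic endothelial genes 0 were called. No gene of these lists rose. The medians were -0.10, -0.28, -0.63 and -0.45. In the 6 comparisons without toxin, no gene of these lists was called. With 1 library left out at a time, the vessel growth list had 2 to 6 genes called in (dep)BCP+MSC minus BCP+MSC. It had 2 without (dep)BCP+MSC replicate 1 or 2, and 3 without BCP+MSC replicate 1 or 3. The Notch list had 0 to 1, with 0 without BCP+MSC replicate 2 or (dep)BCP+MSC replicate 1. The other endothelial list had 1 to 4, with 4 without the library numbered 5, 3 without BCP+MSC replicate 1, 2 without BCP+MSC replicate 3 and 1 in the remaining fits. The pericyte list had 2 to 3, with 2 without BCP+MSC replicate 1 or 2 or (dep)BCP+MSC replicate 1.

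Aplnr, the apelin receptor of sprouting endothelium, was 31.7, 80.9, 26.5 and 40.3 CPM in BCP+MSC. It was 2.39 and 3.40 CPM in replicates 1 and 2 of (dep)BCP+MSC and 3.70 and 9.78 CPM in the libraries numbered 4 and 5, a log2 fold change of -3.20 (SE 0.53, adjusted p = 0.00180 by edgeR). Pdgfb, the growth factor by which endothelium recruits pericytes, was 114, 60.3, 119 and 79.3 CPM in BCP+MSC and between 13.1 and 36.3 CPM in (dep)BCP+MSC (-1.98, SE 0.31, adjusted p = 0.000934). The groups did not overlap for either gene. Both were also lower in (dep)BCP+MSC+RvE1inj, at 9.22 ± 5.83 CPM for Aplnr (-2.27) and 37.3 ± 8.54 CPM for Pdgfb (-1.32).

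Nrp1, a VEGF co-receptor, was 115 ± 18.5 CPM in BCP+MSC and 56.4 ± 27.1 CPM in (dep)BCP+MSC (SD, n = 4), a log2 fold change of -1.03 (adjusted p = 0.0145 by edgeR). Acvrl1 encodes ALK1, the receptor with which endoglin acts, and was -0.95 (adjusted p = 0.0188). The fifth, outside the limit of 4 named genes a list and named after its values were seen, was the angiopoietin gene Angpt4 at -1.78 (adjusted p = 0.0294). Vegfa itself, also named after its values were seen, was 141 CPM on average over the libraries and did not change detectably (0.05, SE 0.28, adjusted p = 0.954).

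Of the Notch genes, Heyl fell from 7.70 ± 4.78 to 1.95 ± 0.621 CPM (-1.96, adjusted p = 0.0130 by edgeR). Of the other endothelial genes, Cd34, which also marks stromal progenitors, fell from 306 ± 102 to 124 ± 46.8 CPM (-1.31, adjusted p = 0.00402), and Myct1 fell as well (-1.06, adjusted p = 0.0281). The pericyte genes were Rgs5, which fell from 122 ± 53.8 to 42.1 ± 9.11 CPM (-1.53, adjusted p = 0.00233), Cspg4, the NG2 proteoglycan gene (-1.40, adjusted p = 0.00532), and Pdgfrb, the receptor for Pdgfb (-0.98, adjusted p = 0.0339).

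**Figure D5:**
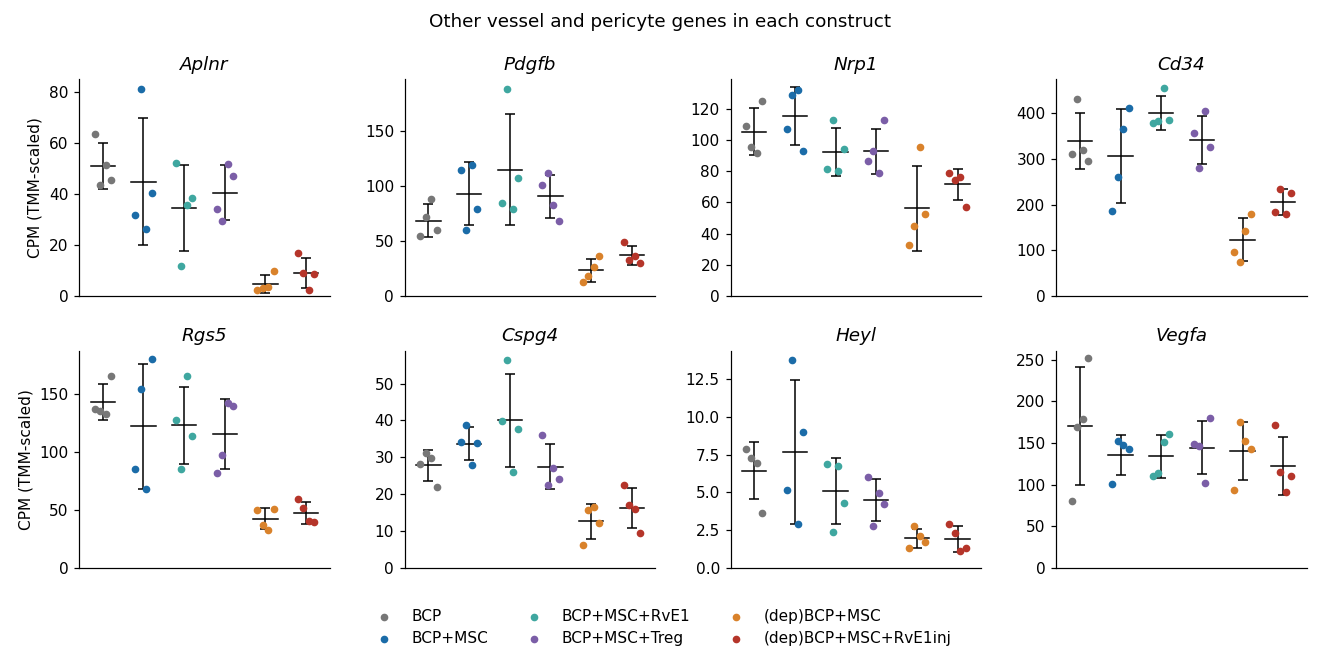
TMM-scaled CPM (vertical axes, from 0) of 7 genes of the vessel and pericyte lists that were called lower in (dep)BCP+MSC minus BCP+MSC, and of Vegfa, which was not, in each of the 24 constructs with the mean and SD of each group (n = 4). Pdgfb lay between 13.1 and 36.3 CPM in (dep)BCP+MSC against 60.3 to 119 CPM in BCP+MSC.

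In all, 11 genes of these lists were called in (dep)BCP+MSC minus BCP+MSC. Aplnr, Pdgfb, Cd34, Rgs5 and Cspg4 were called in all 8 fits that left out 1 library of these groups. The call of Nrp1 was lost without (dep)BCP+MSC replicate 1 (adjusted p = 0.0670) or 2 (0.0701), and that of Heyl without BCP+MSC replicate 2 (0.0614) or (dep)BCP+MSC replicate 1 (0.0573). Acvrl1 was called in 4 of the 8 fits and lost without BCP+MSC replicate 1 (0.0718) or 3 (0.0562) or (dep)BCP+MSC replicate 1 (0.0885) or 2 (0.0763). Myct1 was called in 3 and lost without BCP+MSC replicate 2 (0.103) or 4 (0.0667), (dep)BCP+MSC replicate 1 (0.0766) or 2 (0.0991) or the library numbered 4 (0.0765). Angpt4 was called in 2, without BCP+MSC replicate 2 or 4, and was otherwise at adjusted p = 0.0511 to 0.0845. Pdgfrb was likewise called in 2, without BCP+MSC replicate 3 or the library numbered 4, and was otherwise at adjusted p = 0.0507 to 0.117.

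In (dep)BCP+MSC+RvE1inj minus BCP+MSC, 5 of the 11 were called (Rgs5, Heyl, Aplnr, Pdgfb and Angpt4). The 11 had been chosen by their calls against the same BCP+MSC libraries. The 0.72% of all genes called here is thus no fair yardstick for them, and their overlap is not independent support. Each of these calls was lost in at least 4 of the 8 fits that left out 1 library. Angpt4 was called in 0 of the 8 fits that left out 1 library (adjusted p = 0.0525 to 0.151). Aplnr was called in 2, without BCP+MSC replicate 3 or (dep)BCP+MSC+RvE1inj replicate 1, with an adjusted p of up to 0.171 otherwise. Pdgfb was called in 2, without BCP+MSC replicate 2 or (dep)BCP+MSC+RvE1inj replicate 1, with an adjusted p of up to 0.149 otherwise. Heyl was called in 3, without BCP+MSC replicate 1 or 3 or (dep)BCP+MSC+RvE1inj replicate 1 (up to 0.173 otherwise). Rgs5 was called in 4, and lost without BCP+MSC replicate 2 (0.0866) or 4 (0.0647) or (dep)BCP+MSC+RvE1inj replicate 3 (0.0804) or 4 (0.0853). With (dep)BCP+MSC replicate 1, BCP+MSC replicate 2 and BCP+MSC+RvE1 replicate 2 left out together, an alternative chosen after the values were seen, the vessel growth list had 3 genes called in (dep)BCP+MSC minus BCP+MSC, the pericyte list 2, the other endothelial list 1 and the Notch list 0. Of the 10 genes, that alternative left 0 called in (dep)BCP+MSC minus BCP+MSC and 3 in the (dep) libraries against the 16 without toxin.

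Other tissues of the constructs differed between the groups beside these values, and their part in them was not tested. Of 8 fibroblast genes, 4 fell in (dep)BCP+MSC minus BCP+MSC (Dpt, Pi16, Col1a2 and Lum, median of the list -1.59), against 2.17% of all genes called lower, and 2 to 4 were called with 1 library left out at a time, with 2 without BCP+MSC replicate 2 or 4 or (dep)BCP+MSC replicate 1 or 2. The summed level of the list was 5548 to 13718 CPM against 16251 to 37768 CPM. Of 8 skin keratinocyte genes, 3 rose (Lor, Krt1 and Krt10), against 1.75% of all genes called higher, with the mean log2 CPM of the list at 5.07 in (dep)BCP+MSC replicate 1 and at most 0.58 in BCP+MSC. Without (dep)BCP+MSC replicate 1, or without any 1 of the BCP+MSC replicates, 0 keratinocyte genes were called. Of 15 skeletal muscle genes 0 were called, and their summed level was 26655 to 41424 CPM in (dep)BCP+MSC against 377 to 28876 CPM in BCP+MSC. With a muscle score as a covariate, Cdh5 in the 8 (dep) libraries against BCP+MSC was -0.72 (adjusted p = 0.0538) and Eng -0.65 (adjusted p = 0.0525).

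Among cells that also make Pecam1 or Vwf, 0 of 10 platelet and megakaryocyte genes were called, with a median of 0.21 and a summed level of 177 to 418 CPM in (dep)BCP+MSC against 156 to 479 CPM in BCP+MSC. Of 16 monocyte and macrophage genes 1 rose (Mertk, 1.497, adjusted p = 0.0261 by edgeR; 0 called without BCP+MSC replicate 1 or 3 or (dep)BCP+MSC replicate 1 or 2, and 2 without the library numbered 5), with a summed level of 6707 to 10769 against 9111 to 11930 CPM. No list of lymphocyte or neutrophil genes was counted, so that the part of those cells in the Pecam1 level was not tested. Of 8 adipocyte genes and 7 red cell genes 0 were called. Every gene of the muscle, fat, fibroblast, platelet, red cell and macrophage lists was detected in both groups. Of the lymphatic list, Ccl21a, which has near-identical copies, was at 0 in every library of BCP, BCP+MSC+RvE1 and both (dep) groups, and at most at 0.0546 CPM in BCP+MSC and 0.263 CPM in BCP+MSC+Treg.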

How the data were processed

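Bulk RNA was sequenced from 24 constructs, 4 mice in each of 6 groups. Per the file header and the labels, the authors aligned paired reads with HISAT2 2.0.5 and counted them per gene over exons using featureCounts 1.5.2 on GENCODE release M13 (GRCm38), with no strand option in the command, and deposited whole-number counts. The labels also name Picard, STAR and DESeq2 1.42.0.

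From these counts, genes with at least 10 counts in all were kept (30564 of 51138), libraries were scaled by TMM, and 1 quasi-likelihood fit with 6 group means was made in edgeR 4.0.16 (R 4.3.3). Comparisons are contrasts of that fit, p-values were Benjamini-Hochberg adjusted over all genes tested, and a call is an adjusted p under 0.05. Single values were also compared by two-sided exact permutation over the 70 arrangements of 4 against 4. CPM are counts per 1e+06 TMM-scaled reads, and log2 CPM use a prior count of 2. RPKM divide by the length of the gene's exons. Figures were drawn with matplotlib 3.10.9. The tests were checked on simulated counts.

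The 10 genes, the other lists and the tests were chosen with earlier results of these data known. From each other list, at most 4 called genes per comparison are named, by smallest adjusted p. The comparisons of (dep)BCP+MSC+RvE1inj with BCP+MSC and of both (dep) groups together were added later. Libraries held 8482701 to 144417743 counts, so that 3 counts, the limit a count of 0 allows, correspond to 0.0208 to 0.354 CPM, which covers counting error only. All 36 pairs of libraries within groups differed by more than sampling noise. Replicate numbers are shared between groups. Samples with the same number did not deviate together across all groups, though they did between some, and were not treated as pairs. Alternatives were the RLE scaling, another or no filter on low counts, the replicate block, DESeq2, covariates for muscle content and depth, the compared groups alone, and leaving out libraries. No column of the table was left unused.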

Additional observations from a re-analysis of the deposited data

Results flagged for a closer look

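Each of the 10 genes was examined in each group of 4 libraries for 1 library lying far from the rest, by the gap to its neighbour as a share of the whole range (Dixon's 95% critical value). Of 60 gene and group combinations 6 passed, where chance alone marks about 1 in 20. Kdr in (dep)BCP+MSC replicate 2 was 46.5 CPM against 10.5 to 12.8 in the other 3 libraries. Pecam1 in BCP+MSC replicate 1 was 103 CPM against 137 to 144. BCP+MSC+RvE1 replicate 2 was low in both Tie1, at 22.9 CPM against 46.6 to 52.8, and Eng, at 48.4 CPM against 80.8 to 89.2. Emcn was 21.6 CPM in BCP+MSC+RvE1 replicate 3 against 28.9 to 30.7, and 17.6 CPM in (dep)BCP+MSC+RvE1inj replicate 1 against 22.7 to 23.7.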

How the results depend on the processing

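No call of a gene changed direction, but counts of calls moved with the processing. With the stricter filter, 1 of the 10 genes (Eng) was called in (dep)BCP+MSC minus BCP+MSC. With the replicate number as a block, 2443 genes were called there, 344 in (dep)BCP+MSC+RvE1inj minus (dep)BCP+MSC (median of the 10 genes -0.44) and 30 for injection minus priming (median -0.40). Under the block the remaining (dep) libraries together had 2075 genes and 0 of the 10 called against BCP+MSC. Against the 16 libraries without toxin 1 of the 10 (Cdh5) was called, and over the 6 groups 0 of the 10 were called. Of 50 same-numbered pairs 19 had deviations correlated over 0.1 (-0.62 to 0.62), and 7 of 22 samples correlated best with their own number. Between BCP+MSC+RvE1 and BCP+MSC+Treg the same-numbered deviations correlated at 0.51, 0.50, 0.53 and 0.16. Whether the numbers mark a shared batch or pairing in some groups was not tested. DESeq2 called 6 genes in BCP+MSC minus BCP, 99 in BCP+MSC+RvE1 minus BCP, 3 in BCP+MSC+Treg minus BCP, 3 in BCP+MSC+RvE1 minus BCP+MSC and 2 in BCP+MSC+Treg minus BCP+MSC+RvE1. It called 2895 genes and 1 of the 10 in (dep)BCP+MSC minus BCP+MSC, 8 in (dep)BCP+MSC+RvE1inj minus (dep)BCP+MSC, 1112 and 2 of the 10 in (dep)BCP+MSC+RvE1inj minus BCP+MSC, 2794 for both (dep) groups minus BCP+MSC, 2 for injection minus priming, and 3961 and 2 of the 10 over the 6 groups. A muscle covariate left 0 of the 10 called for both (dep) groups minus BCP+MSC, and a depth covariate left 0 over the 6 groups. With the compared groups alone, 157 genes were called in (dep)BCP+MSC minus BCP+MSC and 40 in (dep)BCP+MSC+RvE1inj minus BCP+MSC. With 3 libraries left out together these counts were 353 and 132, both (dep) groups minus BCP+MSC had 610 genes and 0 of the 10, the 6 groups had 872 and 0, and the median of the 10 in BCP+MSC+RvE1 minus BCP+MSC was 0.15. Leaving out 1 library at a time gave 467 to 1672 genes and 0 to 3 of the 10 in (dep)BCP+MSC minus BCP+MSC, 45 to 213 genes in (dep)BCP+MSC+RvE1inj minus BCP+MSC, medians of the 10 of -0.29 to 0.12 in (dep)BCP+MSC+RvE1inj minus (dep)BCP+MSC and of -0.25 to 0.18 for injection minus priming, 683 to 1584 genes and 0 to 3 of the 10 for both (dep) groups minus BCP+MSC, 3 to 5 of the 10 against the 16 libraries, and 875 to 1622 genes and 0 to 2 of the 10 over the 6 groups. Of 120 fold changes of the 10 genes, 83 of 1050 values under these alternatives and 142 of 1240 without 1 library had the other sign. The cause of these shifts was not tested. Depth limits Angpt2 most, with 83 counts in its lowest library.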
